A study of Mus musculus with 6 samples.

Results

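The transcripts of mouse metaphase II (MII) eggs, which are ovulated and not yet fertilized, were compared between eggs that expressed histone H3.3 with arginine 26 replaced by lysine (R26K) and eggs that expressed unmutated H3.3. The members are the abundant egg transcripts, defined by a mean level of 50 CPM or more (read counts scaled to a library's total) over the 4 libraries compared. There were 2927 of them among 24062 genes in the table, all of which also passed the filter on low counts that left 10667 genes for the test. Eggs came from superovulated 8-week-old HISRainbow;Figla-iCre females. Figla-iCre is a recombinase driven in oocytes, and HISRainbow is a multicolour transgene from which an egg comes to express unmutated H3.3 joined to eGFP, R26K joined to eCFP (H3.3R26K-eCFP) or K27R joined to mCherry, told apart by colour under a confocal microscope. Each form has its own fluorescent tag, so that the tag and the substitution cannot be told apart. Each of the 3 forms had 2 libraries, called biological replicates in the labels; how many eggs and females each stands for is not given in the sources used. The K27R libraries (lysine 27 replaced by arginine) entered the same fit, and their levels are given beside the others.

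H3.3 is the replacement form of histone H3 that is placed into chromatin without DNA replication, by chaperones such as HIRA and DAXX with ATRX. Arginine 26 sits next to lysine 27, the residue that Polycomb repressive complex 2 methylates. A full-grown egg has largely stopped transcription and lives on stored maternal messenger RNA, whose levels reflect synthesis during growth and later changes in poly(A) tail length and decay.

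The libraries differed in depth and in evenness. The R26K libraries held 33786225 and 39603440 counts and the other 4 held 10803477 to 12748821. Every abundant gene had a count in both R26K libraries, whereas 20 and 52 abundant genes had none in H3.3 replicates 1 and 2, and 21 and 52 had none after all libraries were thinned at random to the smallest total. The median absolute log2 ratio between replicates over the abundant genes was 0.67 for H3.3, 0.59 for K27R and 0.25 for R26K. A 10-fold or larger gap between the replicates was seen for 185 abundant genes in H3.3 and 0 in R26K. The defining markers of oocytes were present in every library: of 20 genes, 19 or 20 had a count, with a summed level of 53990 and 60620 CPM in H3.3 eggs and 55570 and 53860 CPM in R26K eggs. Cumulus and granulosa cells enclose the egg, and of their 36 markers 7 and 16 were counted in H3.3 and 24 and 20 in R26K, with summed levels of 1022 and 1931 CPM against 2132 and 2078 CPM; Lhcgr, Areg, Ereg and Pgr were at 0 in all libraries. Markers of blood, immune, stromal or epithelial cells numbered 50, of which 8 and 7 were counted in H3.3 and 11 and 10 in R26K, and the haemoglobin genes and Ptprc were at 0 in all. The part of other cells in the differences between groups was not tested, and that of depth only by thinning to equal totals.

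Of the abundant genes, 42 rose in R26K (1.43% of 2927) and 23 fell (0.786%), by edgeR's quasi-likelihood test with Benjamini-Hochberg adjustment over all 10667 tested genes at a threshold of 0.05. Over all tested genes the shares were 0.403% higher and 0.216% lower, and the 1 called gene that was not abundant was Mad2l2. The smallest change that passed was 3.09-fold. Among those that rose the median log2 fold change was 3.39, with a median level of 85.1 CPM in H3.3 eggs and 641 CPM in R26K eggs. Among those that fell it was -3.3, from 717 CPM in H3.3 eggs to 72.8 CPM in R26K eggs. In 40 of the 65 genes both groups averaged 50 CPM or more; 18 that rose were below this bound in H3.3, and 7 that fell were below it in R26K. In all 65 genes the R26K libraries were both above or both below the other 4. Non-overlap of the groups alone was common: 37.9% of abundant genes had both R26K libraries above both H3.3 libraries and 30.3% below, against 44.9% and 15.2% of all tested genes. At an unadjusted edgeR p under 0.05, 17.1% of abundant genes were higher and 13.8% lower, against 17.6% and 4.14% of all tested genes.

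The calls depended on which libraries entered the fit. A fit of only the 4 libraries compared called 0 abundant genes (edgeR adjusted p from 0.0740 to 0.109 for the 65 genes). In that fit 929 abundant genes had an unadjusted edgeR p under 0.05. DESeq2, which was run on all 6 libraries and not on these 4, called 403 higher and 357 lower. Without either K27R library edgeR called 1 gene higher and 0 lower, and without H3.3 replicate 2 it called 15 and 5. After thinning to equal totals 35 and 24 abundant genes were called; the H3.3 libraries then still had a count for 7507 and 7358 genes, K27R for 10690 and 7405, and R26K for 11719 and 11785. With upper-quartile scaling, which moved the median log2 fold change of abundant genes from 0.07 to -0.13, the split was 31 higher and 27 lower.

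**Figure D1:**
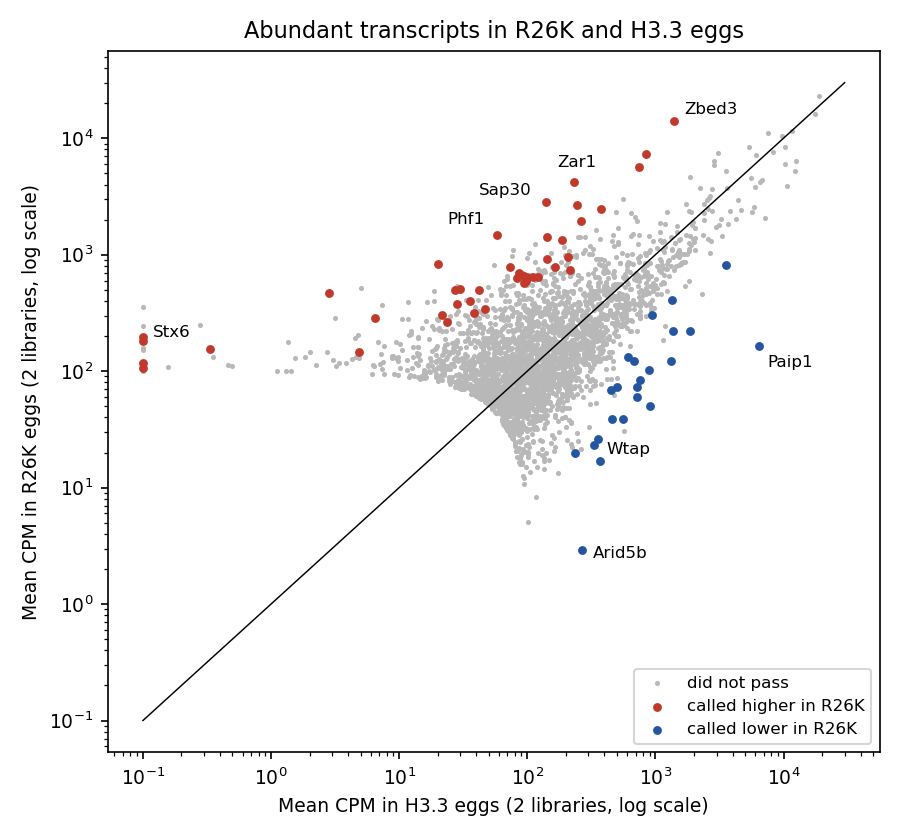
Mean CPM of each abundant gene in R26K eggs (vertical axis, log scale) against H3.3 eggs (horizontal axis, log scale), each over 2 libraries, with means under 0.1 CPM drawn at 0.1. The line marks equal levels, and the 42 genes called higher (red) and 23 called lower (blue) lie above and below it, among other genes as far away that were not called; the empty lower left corner is the bound of 50 CPM on the mean.

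The genes that rose and those that fell differed in base composition, a property that the choice of members did not use. The median GC content of the transcript was 54.4% for the genes that rose (38.6% to 67.7%), 44.9% for those that fell (at most 57.3%) and 47.7% for all abundant genes. Of those that rose 35 of 42 lay above the median of the abundant genes, and of those that fell 16 of 23 lay below it. The same order was seen in coding regions (55.7%, 47.8% and 50.2%) and in 3′ untranslated regions (49.3%, 40.5% and 41.5%). The called genes that rose had shorter transcripts, with a median of 2278 bases against 3703 for those that fell and 3206 for all abundant genes. Among the 1109 genes that were higher without overlap and the 887 that were lower, the order in length was the opposite (3154 and 2996 bases), and in 5 bins of rising length the median log2 fold change was -0.13, 0.20, 0.28, 0.08 and 0.02. The difference in GC content was graded over all abundant genes: in 5 bins of rising GC content with 583 or 584 genes each, the median log2 fold change was -0.70, -0.29, 0.02, 0.49 and 1.14, and 27 of the 42 genes that rose were in the bin with the highest GC. The medians of K27R minus H3.3 in the same bins lay between -0.11 and 0.04. The annotated GC content of the abundant transcripts, weighted by their CPM in each library, was 46.6% in both H3.3 libraries. In K27R it was 46.7% and 46.8%, and R26K had 48.6% and 48.8%, so that it moved with the group.

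**Figure D2:**
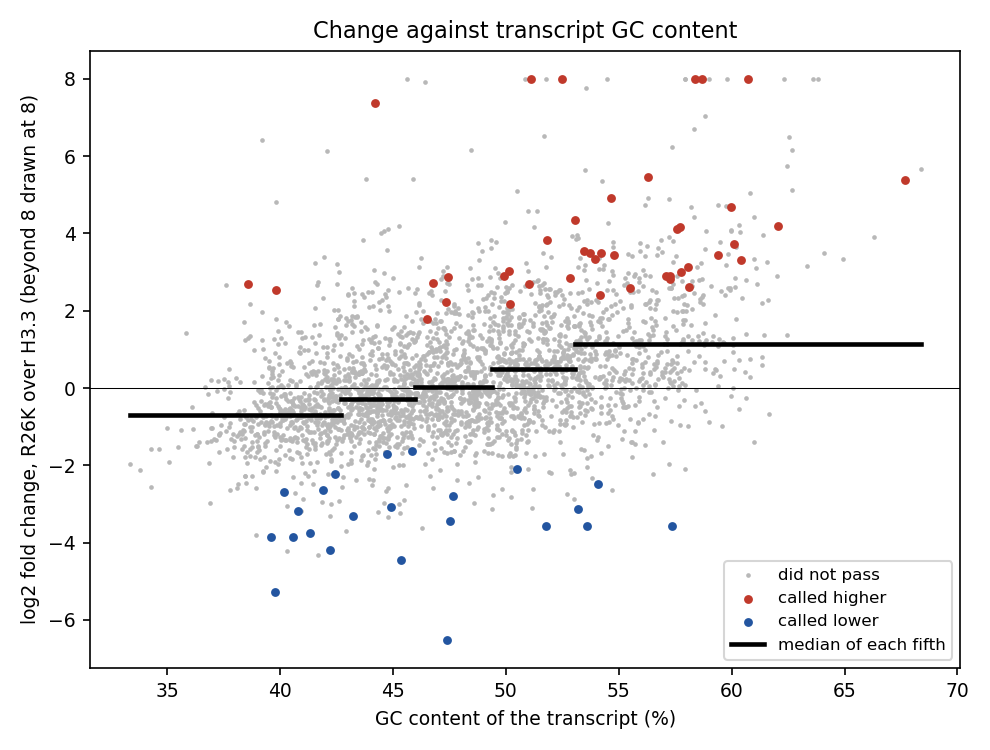
The log2 fold change of R26K over H3.3 (vertical axis, values beyond 8 drawn at 8) against the GC content of each abundant gene's transcript (horizontal axis, percent). Black bars give the median of each of the 5 bins of GC content, which goes from -0.70 to 1.14; red and blue points are genes called higher and lower.

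When each library was corrected for GC content and transcript length with a loess curve, 16 abundant genes were called higher and 21 lower by edgeR. Of the original calls 12 of 42 that rose and 16 of 23 that fell still passed, and 64 of 65 kept their direction. Those that rose and still passed included Stx6, Fam50a, Sap30, Asf1a, Zfand5, E2f5, Klhdc2, Zbed3, Nsmce4a, Phf1 and Ywhab, and the other 30 that rose lost their calls. The gene that changed direction was Bcl7c, a BAF complex gene with the highest GC content of the called genes, which went from a log2 fold change of 5.37 to -0.07. The part of GC content in the differences was not tested beyond this correction.

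Stretches of coding sequence show this contrast, each 90 bases from the middle of the coding region with G and C in capitals, read 5′ to 3′ on the coding strand of GRCm38 transcripts. Zar1 (chr5:72576806-72581254, minus strand, coding bases 496 to 585) and Phf1 (chr17:26933052-26937908, plus strand, coding bases 853 to 942) rose, and 72.2% and 57.8% of the bases shown are G or C. Paip1 (chr13:119428601-119458218, plus strand, coding bases 556 to 645) fell, with 35.6%. The stretch of Wtap, which also fell and is not printed, has 51.1%, nearer to Phf1, while its whole coding region has 43.7%. Asf1a (chr10:53596757-53609225, plus strand, coding bases 262 to 351), with 38.9%, rose, and Tmbim6 (chr15:99392882-99410049, plus strand, coding bases 310 to 399), with 63.3%, fell; they are shown because they run against the trend.

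Zar1: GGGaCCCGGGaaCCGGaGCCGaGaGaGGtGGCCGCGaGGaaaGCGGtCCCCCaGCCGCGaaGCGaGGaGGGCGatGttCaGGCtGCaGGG
Phf1: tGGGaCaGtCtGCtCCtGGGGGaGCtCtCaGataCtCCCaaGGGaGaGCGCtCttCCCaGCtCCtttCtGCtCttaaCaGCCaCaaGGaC
Paip1: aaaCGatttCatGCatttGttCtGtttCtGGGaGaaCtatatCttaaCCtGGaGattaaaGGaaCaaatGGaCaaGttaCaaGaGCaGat
Asf1a: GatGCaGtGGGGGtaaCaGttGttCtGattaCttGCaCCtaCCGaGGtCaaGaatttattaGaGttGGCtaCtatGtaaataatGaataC
Tmbim6: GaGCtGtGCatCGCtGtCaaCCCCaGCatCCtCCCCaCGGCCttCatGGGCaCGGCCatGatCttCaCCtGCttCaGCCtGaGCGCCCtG

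The ends of the transcripts were also read, since maturing oocytes lengthen the poly(A) tails of many stored mRNAs that carry a U-rich cytoplasmic polyadenylation element near the end, and the libraries were primed on poly(A) tails. The motifs TTTTAT and TTTTAAT were searched on the sense strand in the last 100 bases; TTTTAAT can run into the polyadenylation signal AATAAA. At least 1 of these motifs was present in 18 of the 42 genes that rose (42.9%), 6 of the 23 that fell (26.1%) and 797 of 2874 abundant genes with an annotated end (27.7%). In the wider sets that did not overlap, called or not, the share was 29.5% of those higher and 26.6% of those lower, both near that of all abundant genes. A signal AATAAA or ATTAAA was present in 90.5%, 91.3% and 87.1%. The motif in Zbed3 starts 14 bases from the end, after the signal, whereas that in Siah2 starts 39 bases from the end and shares bases with the motif AATAAA. A match says only that the letters are there. The 30-base windows are shown with the motif in capitals.

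Zbed3: tttttttttaataaacTTTTATttatctgc
Siah2: cacactttaattTTTTAATaaaattttttc

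The genes are described below by role. The roles were assigned after their values were seen, so the grouping is a description. Where called members of a function list are counted below, the shares over all abundant genes were 1.43% higher and 0.786% lower. CPM is not corrected for length, so levels are compared between libraries and not between genes. A higher level in each egg and more eggs with the transcript cannot be told apart in pooled eggs.

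**Figure D3:**
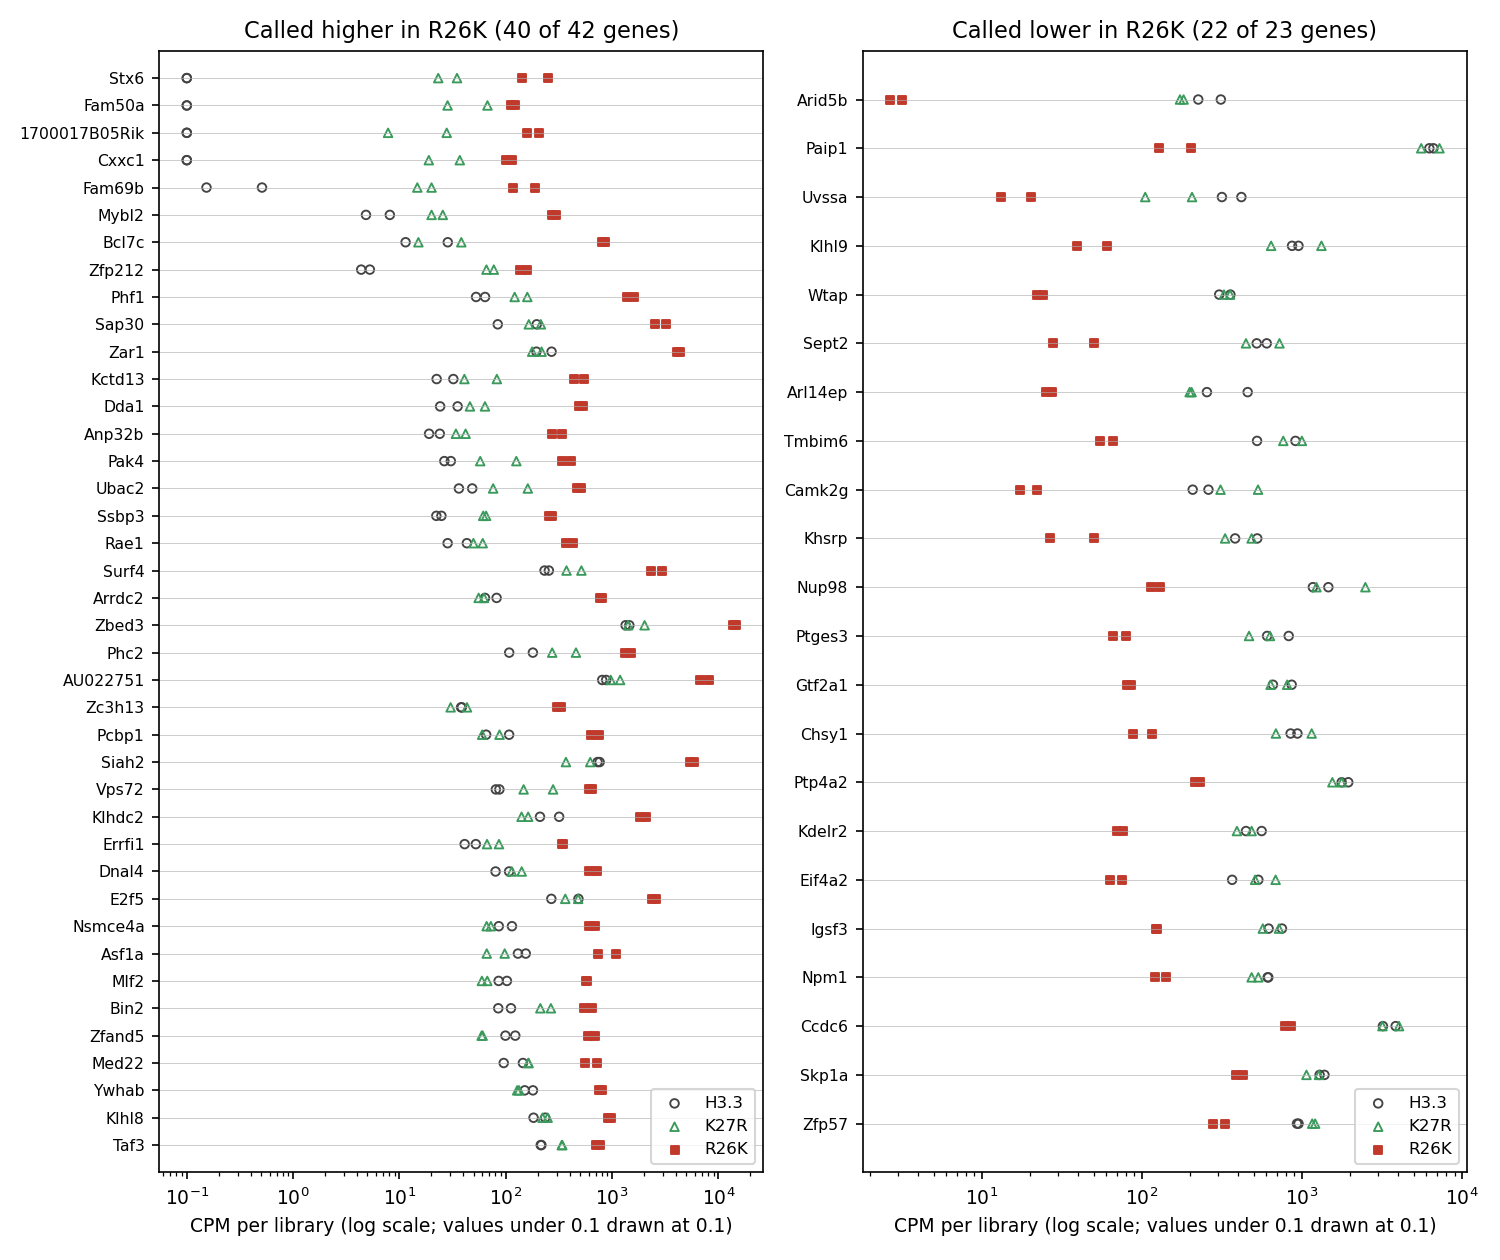
CPM in each library (horizontal axis, log scale, values under 0.1 drawn at 0.1) for 40 of the 42 genes called higher (left) and 22 of the 23 called lower (right), ordered by size of change. Open circles are H3.3, open triangles K27R and filled squares R26K; in every gene drawn both squares lie outside the other 4 points.

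Of the maternal factors, 2 rose. Zbed3, of the subcortical maternal complex, lay at 1452 and 1339 CPM in H3.3 eggs and at 14570 and 13680 CPM in R26K eggs, with 1415 and 2020 CPM in K27R eggs. Its log2 fold change was 3.34 ± 0.25 (SE, 2 libraries per group, edgeR adjusted p = 0.0118) and remained past the test after the GC and length correction, at 2.49 (adjusted p = 0.0239). Zar1, which binds the 3′ ends of stored maternal mRNAs, went from 194 and 270 CPM to 4316 and 4089 CPM; its log2 fold change of 4.18 became 1.25 with the correction (edgeR adjusted p = 0.0606). In both genes the 4 H3.3 and K27R values lay together and the R26K values stood clear of them. A near-identical pseudogene of Zar1 could share its reads.

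Of the 20 abundant members of the list of Polycomb complexes and H3K27 enzymes, 2 rose and 0 fell by edgeR, where 3 were higher and 2 lower by DESeq2 and 4 and 3 had an unadjusted edgeR p under 0.05. Phf1, an accessory subunit of Polycomb repressive complex 2 that helps it to bind chromatin, lay at 52.6 and 63.8 CPM in H3.3 eggs, 121 and 159 CPM in K27R eggs and 1370 and 1607 CPM in R26K eggs. The corrected log2 fold change was 2.03 (edgeR adjusted p = 0.0477) against 4.68 without correction. Phc2, of Polycomb repressive complex 1, lay at 180 and 108 CPM, 273 and 457 CPM, and 1329 and 1510 CPM. Its log2 fold change was 3.304 before the correction and 0.38 after it, and its call was lost (edgeR adjusted p = 0.689). In both genes the K27R libraries lay between the other groups. The core subunits of Polycomb repressive complex 2, Ezh2, Eed and Suz12, were abundant and did not pass (chosen after their values were seen). Cuta overlaps exons of Phf1, and the strand setting of the counting is not known.

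Among the other regulators of chromatin, 6 rose. Sap30, a subunit of the Sin3 histone deacetylase complex, was at 84.1 and 195 CPM in H3.3 eggs, 165 and 214 CPM in K27R eggs, and 3214 and 2504 CPM in R26K eggs. Its log2 fold change was 4.35 ± 0.48 (SE, edgeR adjusted p = 0.0329) and 4.08 with the correction (adjusted p = 0.0323). The H3.3 replicates of Sap30 differed by more than those of most genes described here, and both lay far below R26K. Anp32b, a histone chaperone, went from 19 and 23.96 CPM to 270 and 337 CPM (log2 3.82 ± 0.45). Its corrected value of 3.39 just missed the threshold (edgeR adjusted p = 0.0504). Asf1a, the chaperone that hands H3 and H4 to HIRA and CAF-1, was at 154 and 130 CPM in H3.3 eggs, only 66.2 and 97.6 CPM in K27R eggs, and 1099 and 734 CPM in R26K eggs. Its transcript has the lowest GC content of the genes that rose, and the correction took its log2 fold change from 2.69 to 3.65 (edgeR adjusted p = 0.0209). Exons of Asf1a overlap those of Mcm9. Vps72, of the complexes that exchange the histone variant H2A.Z, went from 87.0 and 80.6 CPM to 601 and 651 CPM, with K27R between them at 147 and 279 CPM. Bcl7c went from 11.4 and 28.5 CPM to 854 and 797 CPM, but only before the GC correction, and its reads could include those of the overlapping Mir762. Cxxc1, a subunit of H3K4 methyltransferase complexes, had 1 count in 1 H3.3 library and none in the other.

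The genes that encode H3.3 did not pass the test. H3f3b was at 3721 and 3901 CPM in H3.3 eggs and 2830 and 1910.0 CPM in R26K eggs, and H3f3a at 63.9 and 104.8 CPM and 35.7 and 38.2 CPM. Reads of the transgene and the endogenous genes are not separated, so these levels are no check on the form in an egg. Of 25 abundant H3.3 genes, histone chaperones and linker histones, 2 rose and 1 fell, with a median log2 fold change of 0.63 against 0.07 for all abundant genes. With the correction the medians were 0.49 and -0.07. In the list DESeq2 called 8 higher and 3 lower, and 8 and 4 had an unadjusted edgeR p under 0.05. Mcm2, which also binds H3 and H4 at replication forks, was at 78.9 and 119 CPM in H3.3 eggs and 647 and 462 CPM in R26K eggs (edgeR adjusted p = 0.0521, not past the threshold). In this gene the groups did not overlap. Slbp, which binds histone mRNA, was at 3340 and 2390 CPM and 6821 and 5038 CPM and did not pass. Rbbp7, a histone-binding subunit of several complexes, was at 2224 and 1528 CPM and 4882 and 4355 CPM and did not pass.

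Transcription factors and cofactors made up 6 of the genes that rose. Mybl2, a cell cycle transcription factor, went from 8.12 and 4.84 CPM in H3.3 eggs to 273 and 298 CPM in R26K eggs, with 25.6 and 20.04 CPM in K27R eggs. E2f5, of the E2F family, went from 482 and 268 CPM to 2393 and 2564 CPM, with K27R inside the H3.3 range at 363 and 479 CPM. Its log2 fold change was 2.72 ± 0.35 (SE, edgeR adjusted p = 0.0426) and 2.82 with the correction. Taf3, the subunit of TFIID that reads methylated H3K4, showed the smallest rise of all, from 213 and 216 CPM to 704 and 771 CPM (log2 1.78). Med22, of the Mediator complex, and Ssbp3, a partner of the LDB1 cofactor, rose by 2.41 and 3.49 on the log2 scale. Zfp212 went from 4.37 and 5.27 CPM to 135 and 158 CPM. Its K27R libraries, at 77.1 and 65.8 CPM, lay far above H3.3 and below R26K.

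In signalling, 3 genes that rose are reported. Pak4, a kinase that acts on the cytoskeleton, lay at 30.4 and 26.4 CPM in H3.3 eggs and 408 and 341 CPM in R26K eggs, and its log2 fold change of 3.72 became 0.94 with the correction. Errfi1, an inhibitor of the EGF receptor, lay at 52.3 and 41.0 CPM and 334 and 345 CPM. Ywhab, a 14-3-3 protein that binds phosphorylated partners, lay at 180 and 151 CPM in H3.3 eggs, 133 and 128 CPM in K27R eggs, and 750 and 806 CPM in R26K eggs. Another 14-3-3 gene, Ywhaz, was lower in R26K, at 547 and 459 CPM against 81.0 and 94.5 CPM, without overlap, but did not pass (edgeR adjusted p = 0.0511).

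The ubiquitin system held 8 of the genes that rose. Siah2, a RING ubiquitin ligase, was at 763 and 729 CPM in H3.3 eggs, 368 and 623 CPM in K27R eggs, and 5848 and 5369 CPM in R26K eggs. Its log2 fold change was 2.91 ± 0.31 (SE, edgeR adjusted p = 0.0324) and 1.13 with the correction, which ended the call. Klhdc2, a substrate receptor of a cullin-2 ligase, went from 318 and 210 CPM to 2084 and 1835 CPM, with 141 and 162 CPM in K27R eggs, and still passed with the correction at 2.58 (edgeR adjusted p = 0.0330). Exons of Klhdc2 overlap those of Nemf. Kctd13 and Klhl8, adaptors of cullin-3 ligases, went from 22.4 and 32.1 CPM to 549 and 436 CPM and from 235 and 182 CPM to 921 and 975 CPM. Dda1, a partner of the DDB1 adaptor, went from 35.2 and 24.1 CPM to 535 and 484 CPM. Its exons overlap those of Ano8, and those of Kctd13 overlap Asphd1. Zfand5, which binds ubiquitin and the proteasome, was at 122.8 and 99.3 CPM in H3.3 eggs, lower in K27R at 59.3 and 60.6 CPM, and at 693 and 596 CPM in R26K eggs, and kept its call with the correction. Ubac2, of the endoplasmic reticulum, and Arrdc2, an adaptor for NEDD4 ligases, rose by 3.55 and 3.43 on the log2 scale; with the correction they were at 2.70 and 1.01 and neither passed (edgeR adjusted p = 0.0837 and 0.244). In the opposite direction, Skp1a, the core adaptor of SCF ligases, went from 1385 and 1292 CPM to 430 and 387 CPM, and Klhl9, a cullin-3 adaptor, from 869 and 953 CPM to 61.0 and 39.3 CPM. Of the 69 abundant members of the list of ubiquitin and SUMO conjugation 3 rose and 2 fell by edgeR. Over all abundant genes 1.43% rose and 0.786% fell. In the list DESeq2 called 11 higher and 8 lower, and 15 and 8 had an unadjusted edgeR p under 0.05. The list's median was 0.22, or 0.15 with the correction and 0.02 with upper-quartile scaling. All abundant genes had 0.07, -0.07 and -0.13.

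Of the genes of membrane traffic, 3 rose. Surf4, a receptor that carries cargo from the endoplasmic reticulum, went from 232 and 254 CPM in H3.3 eggs to 2960 and 2346 CPM in R26K eggs, with 372 and 514 CPM in K27R eggs (log2 3.45 ± 0.28 SE, edgeR adjusted p = 0.0153). With the correction it was at 2.18 and did not pass (edgeR adjusted p = 0.0633). Its exons overlap those of Surf2. Bin2, a membrane-bending protein, went from 112 and 85.0 CPM to 643 and 541 CPM, with K27R at 211 and 266 CPM; its log2 fold change of 2.59 became 1.39 with the correction, which ended the call (edgeR adjusted p = 0.142). Stx6, a SNARE of endosomes and the Golgi, had no count in H3.3 eggs but 248 and 142 CPM in R26K eggs, at least 804-fold above the level that 3 counts per H3.3 library would give. The bound covers counting error only, and Stx6 was counted in both K27R libraries at 34.8 and 23.2 CPM. The other genes that rose were Nsmce4a, a subunit of the SMC5/6 complex of genome maintenance (86.0 and 114 CPM to 688 and 609 CPM), Mlf2, the dynein light chain gene Dnal4, Fam50a, Fam69b and 2 genes with clone names.

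Among the genes that fell, 4 that act on translation or on mRNA are reported. Paip1, which binds the poly(A)-binding protein and promotes translation, was at 6263 and 6641 CPM in H3.3 eggs and at 202 and 128 CPM in R26K eggs, with 5573 and 7248 CPM in K27R eggs. Its log2 fold change was -5.29 ± 0.33 (SE, edgeR adjusted p = 0.0113) and -4.55 with the correction. Eif4a2, a helicase of the cap-binding complex, fell from 367 and 535 CPM to 63.1 and 75.6 CPM; it holds snoRNA genes and overlaps Rfc4, and did not pass with the correction. Khsrp, which directs the decay of AU-rich mRNAs, fell from 383 and 526.5 CPM to 26.8 and 50.4 CPM. Khsrp has the highest GC content of the genes that fell, and the correction took its log2 fold change from -3.56 to -5.43. Wtap, a subunit of the enzyme complex that writes m6A on RNA, fell from 305 and 358 CPM to 22.1 and 24.0 CPM, a log2 fold change of -3.85 ± 0.32 (SE, edgeR adjusted p = 0.0153), and has 2 near-identical pseudogenes.

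The RNA m6A list held genes that moved in opposite directions. Of 8 abundant members 1 fell (Wtap) and 1 rose by edgeR. DESeq2 called 3 higher and 1 lower, and 4 and 1 had an unadjusted edgeR p under 0.05. The gene that rose, Zc3h13, anchors the same writer complex in the nucleus; it went from 38.5 and 37.98 CPM in H3.3 eggs to 301 and 328 CPM in R26K eggs, with 43.2 and 30.3 CPM in K27R eggs, and passed narrowly (edgeR adjusted p = 0.04996). With the correction it did not pass (adjusted p = 0.0696). Alkbh5, an m6A demethylase, was at 153 and 184 CPM in H3.3 eggs, 198 and 171 CPM in K27R eggs and 602 and 607 CPM in R26K eggs (edgeR adjusted p = 0.0535), and Hnrnpa2b1, a proposed reader, at 418 and 314 CPM and 221 and 224 CPM. In each of these 4 genes the H3.3 and R26K libraries did not overlap, which was common among all abundant genes (37.9% higher and 30.3% lower).

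Transcripts of genes for the nuclear pore and mRNA export also went in opposite directions. Rae1, an export factor that binds Nup98, rose from 43.1 and 28.4 CPM to 427 and 372 CPM (log2 3.48 ± 0.41 SE, edgeR adjusted p = 0.0329). Nup98 itself fell from 1172 and 1465 CPM to 130 and 114 CPM (log2 -3.43 ± 0.40 SE, edgeR adjusted p = 0.0329), and its K27R libraries, at 1234 and 2496 CPM, lay within and above the H3.3 range. With the correction Nup98 still passed and Rae1 did not. The 26 abundant genes of the nuclear pore list had a median of 0.40, which was 0.05 with the correction. Without overlap 12 of them were higher (46.2%, against 37.9% of all abundant genes) and 4 lower (15.4%, against 30.3%). Pcbp1, which binds C-rich RNA, rose from 65.4 and 108 CPM to 627 and 757 CPM.

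Among the genes of chromatin and transcription, 4 fell. Arid5b, a DNA-binding partner of a histone demethylase, went from 225 and 312 CPM in H3.3 eggs to 2.69 and 3.18 CPM in R26K eggs, with 183 and 173 CPM in K27R eggs, the largest fall of all at -6.51. Gtf2a1, the large subunit of TFIIA, fell from 660 and 864 CPM to 85.7 and 81.3 CPM (log2 -3.19 ± 0.29 SE, edgeR adjusted p = 0.0217). Npm1, nucleophosmin, fell from 612 and 617 CPM to 142 and 121 CPM and has 4 near-identical pseudogenes. Zfp57, which keeps imprinted regions methylated, showed the smallest fall, from 933 and 954 CPM to 280 and 332 CPM, with K27R above H3.3 at 1161 and 1211 CPM. Npm1 and Zfp57 did not pass with the correction (edgeR adjusted p = 0.0576 and 0.0561).

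A group of 3 genes of the endoplasmic reticulum and of protein folding fell and kept their calls with the correction. Tmbim6, which protects against stress of the endoplasmic reticulum and cell death, fell from 525 and 913 CPM to 54.6 and 65.7 CPM, and K27R eggs had 766 and 1001 CPM. Kdelr2, the receptor that returns proteins to the endoplasmic reticulum, fell from 448 and 561 CPM to 76.1 and 69.5 CPM, a log2 fold change of -2.79 ± 0.29 (SE, edgeR adjusted p = 0.0324). Ptges3, the HSP90 partner p23, fell from 607 and 828 CPM to 65.6 and 80.0 CPM and has a near-identical pseudogene. Of 39 abundant secretory pathway genes, 1 fell (Tmbim6) and 0 rose by edgeR, where DESeq2 called 5 higher and 6 lower, and 7 and 8 had an unadjusted edgeR p under 0.05.

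Camk2g, the calmodulin-dependent kinase that carries the calcium signal at egg activation, fell from 208 and 261 CPM in H3.3 eggs to 22.1 and 17.5 CPM in R26K eggs; its K27R libraries were the highest of all, at 311 and 533 CPM. The corrected log2 fold change was -4.35 against -3.57 (edgeR adjusted p = 0.0450 and 0.0329). The list of calcium response and egg activation had the lowest median of the function lists with at least 5 abundant members, -1.04 over 13 genes. With the correction it was -0.72 and no longer the lowest, since small RNA and retrotransposon silencing (7 genes) was at -0.97 and the zona pellucida list (9 genes) at -0.81. Of the 13 genes, 8 were lower without overlap (61.5%, against 30.3% of all abundant genes) and 2 higher (15.4%, against 37.9%). By edgeR 1 was called lower (Camk2g) and 1 called higher (Stx6, which belongs to the general traffic machinery). Itpr2, a calcium channel, overlapped at 341 and 825 CPM against 357 and 706 CPM.

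The remaining genes that fell were spread over several roles. Ptp4a2, a membrane-bound phosphatase, went from 1774 and 1951 CPM to 230 and 215 CPM (log2 -3.07 ± 0.22 SE, edgeR adjusted p = 0.0118). Ccdc6 went from 3858 and 3211 CPM to 858 and 784 CPM (log2 -2.11 ± 0.23 SE, edgeR adjusted p = 0.0329). Chsy1, which makes chondroitin chains, went from 939 and 851 CPM to 116 and 88.8 CPM, and Igsf3 from 620 and 752 CPM to 122 and 125 CPM. Each of these kept its call with the correction. Sept2, a septin of the cell cortex, went from 523 and 604 CPM to 50.5 and 27.8 CPM and just missed with it (edgeR adjusted p = 0.0502). Uvssa, of transcription-coupled repair, went from 317 and 419 CPM to 20.3 and 13.3 CPM, with K27R between at 105 and 206 CPM, and Arl14ep from 255 and 459 CPM to 25.2 and 27.4 CPM; neither passed with the correction.

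Of the 10 genes with the highest mean CPM, 0 passed the test by edgeR; Spin1 and Oog3 had an unadjusted p under 0.05, and DESeq2 called 2 lower. H1foo, the oocyte linker histone, was at 18440 and 19440 CPM in H3.3 eggs and 23310 and 22590 CPM in R26K eggs. Gdf9, the growth factor by which the egg signals to its cumulus cells, was at 11820 and 11280 CPM against 11990 and 11040 CPM, with overlapping groups. Bcl2l10, a survival factor of the BCL2 family, overlapped at 16500 and 18600 CPM against 17710 and 14570 CPM. Btg4, an adaptor for the deadenylation of maternal mRNA, did not overlap, at 10320 and 10160 CPM against 9059 and 7813 CPM. Spin1, a reader of methylated H3K4, was at 12160 and 12320 CPM in H3.3 eggs and 5349 and 5117 CPM in R26K eggs (edgeR adjusted p = 0.0704). Oog3 was at 13900 and 10920 CPM against 7509 and 5341 CPM, and Pttg1, securin, at 8491 and 12000 CPM against 6923 and 5198 CPM. Tcl1, a cofactor of AKT kinase, was at 8695 and 6479 CPM against 11880 and 10330 CPM. In Spin1, Oog3, Pttg1 and Btg4 the R26K libraries were the lower ones, and in H1foo and Tcl1 the higher. The other 2 have clone names. When the 100 highest abundant genes were taken in each library separately, they made up 37.0% and 37.8% of all counts in H3.3 eggs. In K27R eggs they made up 35.8% and 40.3%, and in R26K eggs 34.3% and 32.3%.

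**Figure D4:**
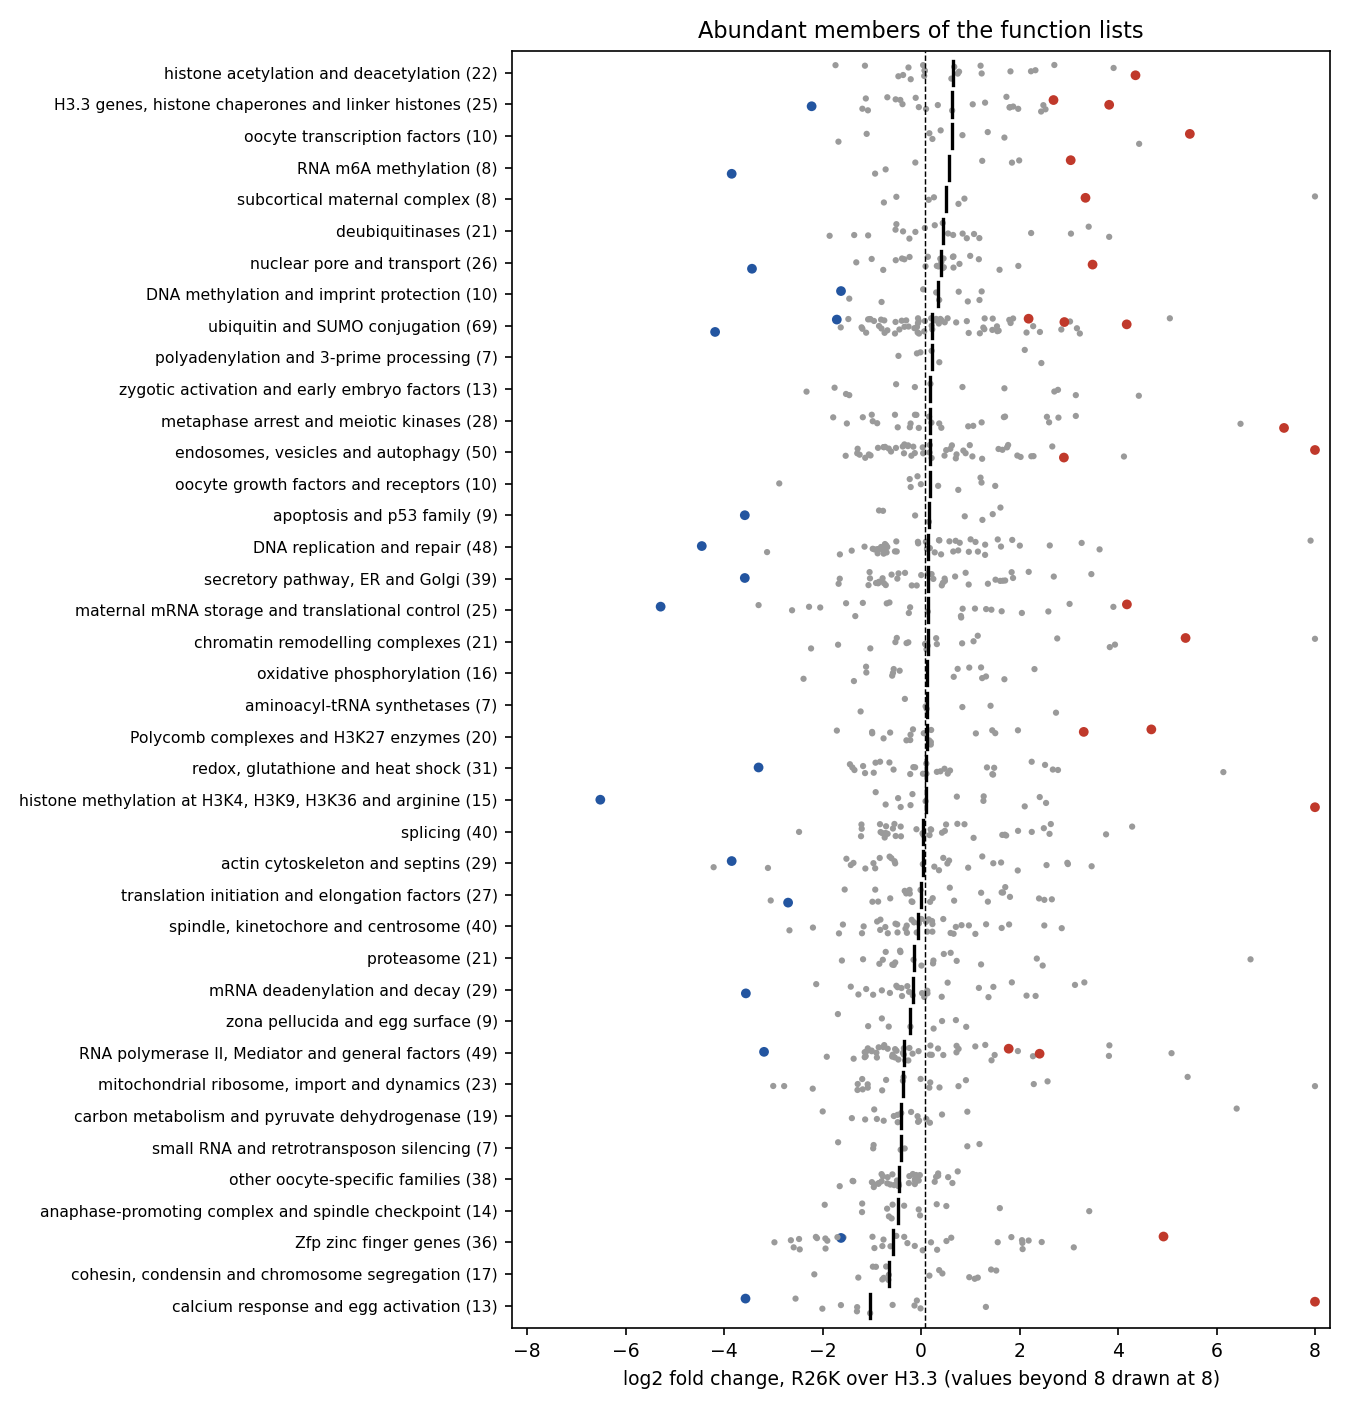
The log2 fold change of R26K over H3.3 (horizontal axis, values beyond 8 drawn at 8) for each abundant member of the function lists with at least 5 abundant members, whose number stands in brackets. Thick marks are list medians, from 0.64 at the top to -1.04 at the bottom, the dashed line is the median of all abundant genes at 0.07, and red and blue points are called genes.

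The lists of genes by function are described by counts and medians. The medians are given beside the 0.07 of all abundant genes, and 16 lists whose median changed sign with the scaling are given no direction. The 38 oocyte-specific genes of other families (Nlrp, Oog, Oosp, Omt2, Oas1, Tcl1b and Fbxw genes among them) had 0 calls by edgeR (1 higher and 13 lower at an unadjusted p under 0.05, and 1 and 12 by DESeq2), 31 members below 0, 20 lower and 7 higher without overlap (52.6% and 18.4%, against 30.3% and 37.9% of all abundant genes), and a median of -0.45. With the GC and length correction the median was -0.06, and the median GC content of the list was 44.1%. The 36 abundant Zfp zinc finger genes had 1 that rose and 1 that fell, 18 lower and 10 higher without overlap (50.0% and 27.8%, against the same 30.3% and 37.9%) and a median of -0.56, which was -0.19 with the correction. The 17 genes of cohesin, condensin and chromosome segregation had 0 calls by edgeR (2 and 2 at an unadjusted p under 0.05, and 1 and 2 by DESeq2) and a median of -0.65, which was -0.07 with the correction. Smc4, of condensin, was at 623 and 721 CPM in H3.3 eggs and 1654 and 1332 CPM in R26K eggs and did not pass. The 4 abundant cytosolic ribosomal protein genes, Rps14, Rpl13a, Rpl4 and Rps27l, were all lower without overlap, against 30.3% of all abundant genes. Their median was -1.33, or -1.50 with the correction. By edgeR 0 passed (2 at an unadjusted p under 0.05, and 1 by DESeq2). These 4 are named although their list is short, a choice made after their values were seen, and 57 genes of that family were tested in all. The rest were below the bound and are not described, so these values do not stand for the family.

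The list of histone acetylation and deacetylation had a median of 0.64 over 22 genes, with 1 that rose (Sap30). With the correction the median was -0.20, and the list's median GC content was 51.9%. Ing1, a chromatin reader of deacetylase complexes, was at 831 and 643 CPM in H3.3 eggs and 498 and 573 CPM in R26K eggs. The list of oocyte transcription factors (10 genes), not all of which are particular to oocytes, had a median of 0.62 and 0.82 with the correction. In it 1 rose (Mybl2, the cell cycle factor described above). Obox5, an oocyte homeobox gene, was at 2778 and 2729 CPM against 3426 and 3830 CPM. Obox2 overlapped, at 2166 and 3080 CPM against 3341 and 2814 CPM. The 14 genes of the anaphase-promoting complex and spindle checkpoint had 0 calls by edgeR (2 higher and 3 lower at an unadjusted p under 0.05, and 1 and 3 by DESeq2) and a median of -0.46. Of these, Bub1b was at 2310 and 1454 CPM against 2171 and 2520 CPM and Mad2l1 at 1408 and 1700 CPM against 1214 and 840 CPM. The 21 deubiquitinases had 0 calls by edgeR (6 and 2 at an unadjusted p under 0.05, and 6 and 1 by DESeq2) and a median of 0.44, or 0.02 with the correction. Among them Usp19 was at 56.7 and 175 CPM against 1101 and 1348 CPM without passing (edgeR adjusted p = 0.0872).

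Genes of the zona pellucida and egg surface had 0 calls among 9 by edgeR (0 higher and 2 lower at an unadjusted p under 0.05, and likewise by DESeq2) and a median of -0.22, or -0.81 with the correction. Zp3, a protein of the zona pellucida, was at 384 and 698 CPM in H3.3 eggs and 317 and 306 CPM in R26K eggs. Astl, the protease that cleaves the zona after fertilization, was at 1364 and 1819 CPM against 866 and 1153 CPM. Bmp15, an egg growth factor, was at 2717 and 2783 CPM against 2278 and 2472 CPM. In all of these the R26K libraries were the lower ones, by less than any called gene. Mos, the kinase of metaphase arrest, overlapped at 1504 and 1572 CPM against 994 and 1660 CPM, and Ccnb1, cyclin B1, was at 1505 and 1544 CPM against 855 and 789 CPM. Dppa3, which protects the maternal genome from demethylation, was at 8801 and 12380 CPM in H3.3 eggs and 4425 and 3280 CPM in R26K eggs, without overlap, and did not pass (edgeR adjusted p = 0.0966). The 19 genes of carbon metabolism had 0 calls by edgeR (1 and 2 at an unadjusted p under 0.05, and the same by DESeq2) and a median of -0.40, with Ldhb at 1458 and 2194 CPM against 914 and 1244 CPM. The 23 mitochondrial ribosome, import and dynamics genes had 0 calls by edgeR (4 and 6 at an unadjusted p under 0.05, and 3 and 6 by DESeq2) and a median of -0.37, with Mrpl18 at 656 and 655 CPM against 257 and 278 CPM and Mff at 107 and 84.3 CPM against 653 and 485 CPM. The 21 proteasome genes had 0 calls by edgeR (4 and 2 at an unadjusted p under 0.05, and 4 and 1 by DESeq2) and a median of -0.15, with Psma7 at 1492 and 1429 CPM against 1047 and 942 CPM.

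The bound of 50 CPM changed few calls. Just outside it were Inpp5b and Fam103a1, at means of 49.9 and 49.98 CPM, and just inside Ppm1h and Mrpl3, at 50.05 and 50.06 CPM. At a bound of 20 CPM 43 and 23 genes were called and at 100 CPM 36 and 23.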

How the data were processed

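The deposited table holds raw read counts per gene symbol (whole numbers, not normalized) for 24062 genes in 6 libraries of MII eggs, and 0 columns were left out. Per the labels, cDNA was made from poly(A) tails with the SMARTer Ultra Low kit, libraries with the Nextera kit, and single reads were taken on a HiSeq 2000. The submitters' processing notes name featureCounts, TopHat2 2.1.0, cutadapt 1.9.1, SAMtools 1.3 and build mm10; the annotation, strand setting and treatment of reads with several positions are not given in the sources used here. Where exons overlap or near-identical pseudogenes exist (at least 95% identity over 200 bases), reads may be shared. Such pseudogenes were found for Bcl7c, Eif4a2, H3f3a, H3f3b, Khsrp, Mybl2, Npm1, Ptges3, Ptp4a2, Wtap and Zar1.

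From the counts, CPM were computed with TMM scaling. Genes that passed filterByExpr (10667) were tested with edgeR 4.0.16 in R 4.3.3 (glmQLFit, glmQLFTest, two-sided) in a single model of 3 groups over the 6 libraries (3 residual degrees of freedom), with Benjamini-Hochberg adjustment over all tested genes at 0.05. The SE of a log2 fold change was taken from the F statistic (the change over its square root). Whether replicates are of separate females is not in the labels; the p-values measure only how these libraries vary, which may be technical. For genes with no count a floor of 3 counts per library (0.230 and 0.255 CPM in H3.3) was used. Scripts were tested on simulated data. Alternatives were DESeq2 1.42.0, other scalings, filters and bounds, fewer libraries, a replicate block, robust estimation of spread, thinning, and a loess correction (span 0.5) for GC content and length.

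Positions, GC content and sequences come from the GENCODE transcripts of GRCm38; 23666 symbols matched, 916 of them through older names, and 99.6% of abundant genes have a GC content. Named genes are those called, the 10 next by p in each direction, the 10 most abundant, H3f3a, H3f3b, and the 2 most abundant of each function list with at least 5 abundant members. Genes with clone names are only counted, and 3 called genes and 1 other gene that this rule names are not reported here. Members, lists and alternatives were chosen with earlier results of these data known, and roles were assigned after the values were seen.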

Additional observations from a re-analysis of the deposited data

How the results depend on the processing

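Across the alternatives with all libraries, the 65 called genes kept their direction except Bcl7c with the GC and length correction (log2 fold change -0.068). Of the genes next by p, Ptov1 reversed with that correction (-0.74) and with it plus the replicate block (-0.70). The number of abundant genes higher and lower, and then over all tested genes, moved by over 1.5 times in at least 1 of these counts under the following settings. They were 154 and 63 (178 and 63) with no filter, 106 and 42 (113 and 42) with a filter of 10 CPM, and 225 and 155 with only the abundant genes tested. They were 0 and 0 (0 and 0) with only the 4 libraries, 403 and 357 (1218 and 426) with DESeq2, and 16 and 21 (16 and 21) with the GC and length correction. Leaving out each library in turn gave 1 to 133 abundant genes higher and 0 to 56 lower, and 1 to 147 and 0 to 56 over all. The lowest counts came without either K27R library and the next lowest, 15 and 5, without H3.3 replicate 2; the cause was not tested.

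With the replicate number as a block the counts were 184 and 65 (195 and 65), and with the block and the correction 80 and 77 (84 and 77). The deviations of same-numbered H3.3 and R26K libraries correlated at -0.02 over 2927 genes, those of H3.3 and K27R at 0.09 and those of K27R and R26K at 0.01. The labels do not say whether a number marks shared females or a shared day. These correlations cannot decide it, since the libraries may share females without moving together. All 65 calls held with the block. Among the called genes, 693 of 845 results kept their side of the threshold over the 13 alternatives that left out no single library, among which the fit of only the 4 libraries kept 0 of 65, and 183 of 390 did with 1 library left out. Of the list medians, 57 of 533 and 33 of 246 moved by more than the gap between replicates.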

Other observations

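Genes that came closest to passing without doing so had edgeR adjusted p from 0.0511 to 0.0579. In each the H3.3 and R26K groups did not overlap, which their choice by the smallest p all but fixes. Over all abundant genes 37.9% were higher and 30.3% lower without overlap. On the higher side, Ptov1 was at 34.7 and 23.4 CPM in H3.3 eggs and 340 and 318 CPM in R26K eggs, and Cnot11, a subunit of the main deadenylase complex, at 45.9 and 57.4 CPM and 548 and 354 CPM. Dusp7, a phosphatase of MAP kinases, was at 341 and 225 CPM and 1323 and 1523 CPM. Pdp1, the phosphatase that activates the pyruvate dehydrogenase complex, stood at 2.38 and 0.680 CPM in H3.3 eggs, 75.9 and 77.7 CPM in K27R eggs and 127 and 135 CPM in R26K eggs, so that K27R stood apart from H3.3 too. On the lower side, Sall4, a zinc finger factor of germ cells and early embryos, was at 2120 and 2499 CPM in H3.3 eggs, 1982 and 3309 CPM in K27R eggs and 361 and 560 CPM in R26K eggs. Actr2, of the actin-branching ARP2/3 complex, was at 404 and 741 CPM and 34.6 and 27.1 CPM. Srsf10, a splicing regulator, was at 189 and 237 CPM and 34.8 and 41.5 CPM. Fxr1, an RNA-binding protein, was at 346 and 333 CPM and 74.6 and 89.6 CPM, and Eif3e, a translation initiation subunit, at 297 and 194 CPM and 33.7 and 25.4 CPM.

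The K27R libraries, which no comparison here tests, are described by their place among the called genes. Both were between the groups in 25 of the 42 genes that rose and in 5 of the 23 that fell. The share over all abundant genes was not counted. The called genes were chosen for a gap between R26K and H3.3, which leaves room for values between them. These counts are therefore no result about K27R. The median level of the K27R libraries was 79.2 CPM in the genes that rose and 645 CPM in those that fell, near the H3.3 medians of 85.1 and 717 CPM. Over all abundant genes, log2 CPM of H3.3 replicate 1 correlated with K27R replicate 1 at 0.846 and with H3.3 replicate 2 at 0.686. The R26K replicates correlated with each other at 0.959, with K27R at 0.537 to 0.620 and with H3.3 at 0.447 to 0.495. The K27R replicates correlated with each other at 0.797 (Pearson r across 2927 genes, which share their libraries and are not replicates). These genes were chosen by their mean over the H3.3 and R26K libraries, and 491 averaged 50 CPM or more only in R26K and 297 only in H3.3. That choice can itself lower the correlation of R26K with H3.3.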
